A study of Mus musculus with 3 samples.

Results

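The 10 genes described here encode proteins that license the start sites of DNA replication and turn licensed sites into working forks: the loading factors Cdc6 and Cdt1, the helicase subunits Mcm2, Mcm3, Mcm4, Mcm5, Mcm6 and Mcm7, and the activators Cdc45 and Gins2. They were taken by gene symbol from a table of 26970 genes, and all 10 were found. The table holds RNA-seq values of the mandibular condyle, the bone and cartilage head of the lower jaw, from mice 4 months of age. There was 1 library for each of 3 genotypes: wild type (WT, +/+), heterozygous Dspp+/- and homozygous Dspp-/-. Dspp codes for dentin sialophosphoprotein, a matrix protein of mineralized tissue, and the null allele was a global knockout on a C57BL/6 background, so no promoter or Cre limited it to a cell type. Condyles of 3 animals were pooled for the WT and for the Dspp+/- library, and the number behind the Dspp-/- library was not given. Dspp itself was not analysed here, and no genotype label was checked against its level.

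During G1, CDC6 and CDT1 help the origin recognition complex to load rings of the MCM2 to MCM7 proteins onto DNA, which marks a site as licensed. When S phase begins, CDC45 and the GINS complex join the ring and the helicase starts to unwind DNA, while geminin and the destruction of CDT1 keep sites from being licensed again. The genes are transcribed when cells enter the cycle, largely under E2F control, and are low in cells that do not divide. In bone the dividing cells include precursors of blood cells in the marrow as well as precursors of cartilage and bone cells.

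Values were read as FPKM, fragments per kilobase of transcript scaled to sequencing depth. The length that matched them was that of all annotated exons of a gene merged, and not that of 1 transcript. Levels set side by side between genes therefore depend on this annotation, which the counting intervals do not cover. The length drops out of the fold of a gene between libraries. Whole fragments could be recovered from the FPKM values, 20241576 in the WT, 23613621 in the Dspp+/- and 22253159 in the Dspp-/- library. With 1 library per genotype there was no estimate of the spread between animals and no test of a genotype. The intervals given are exact 95% intervals on the recovered fragments, cover only the error of counting, and do not show how other condyles of the same genotype would vary. Mitochondrially encoded genes took 25.0% of all FPKM in the WT library, 36.9% in Dspp+/- and 37.3% in the Dspp-/- library, and chondrocyte and osteoblast markers were present in all 3 libraries.

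Stretches before the start sites of 3 helicase subunit genes are shown because they differ in the words that E2F factors are known to bind: Mcm5 and Mcm6 hold such words and Mcm3 holds none. Each is the 160 bases before the RefSeq start on build GRCm38.p6, read 5′ to 3′ on the strand of the gene, and none of the 3 overlaps an annotated exon. Capitals mark the E2F words (TTTCCCGC, TTTCGCGC, TTTGCCGC or TTTGGCGC) and the CCAAT box, each on either strand. They lie at chr8:75109349-75109508 on the plus strand (Mcm5), at chr1:128359706-128359865 on the minus strand (Mcm6) and at chr1:20820313-20820472 on the minus strand (Mcm3).
Mcm5: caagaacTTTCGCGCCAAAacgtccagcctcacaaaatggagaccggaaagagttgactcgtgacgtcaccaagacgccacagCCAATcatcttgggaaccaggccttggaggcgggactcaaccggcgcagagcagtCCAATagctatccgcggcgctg
Mcm6: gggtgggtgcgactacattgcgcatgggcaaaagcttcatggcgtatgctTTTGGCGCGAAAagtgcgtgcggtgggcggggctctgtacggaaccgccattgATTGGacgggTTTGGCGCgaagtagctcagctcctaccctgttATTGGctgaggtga
Mcm3: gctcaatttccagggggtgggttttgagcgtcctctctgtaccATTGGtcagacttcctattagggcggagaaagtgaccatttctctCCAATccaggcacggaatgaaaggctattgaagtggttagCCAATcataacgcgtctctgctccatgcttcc

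In Mcm5 a pair of E2F words on opposite strands overlaps, the outer one beginning 153 bases before the start. Mcm6 has an overlapping pair that begins 110 bases before the start and a single word at 47 bases. Over the 250 bases before the start, 4 of the 8 licensing genes with an entry held an E2F word (Mcm5, Mcm6, Mcm7 and Cdc6), which is 50.0%, beside 2.16% of all 27025 genes. Of 11 mitotic genes with an entry, 1 held it, Cdk1, the kinase that drives mitosis. The CCAAT box stood in 6 of the 8 licensing genes (75.0%), in all 11 mitotic genes and in 37.5% of all genes. The CHR word (TTTGAA or TTCGAA, either strand), known from genes expressed late in the cycle, stood in 3 of 8 licensing genes (37.5%), in 6 of 11 mitotic genes (54.5%) and in 19.6% of all genes. These are matches of letters and not measured binding. Mcm4 and Gins2 had no entry.

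The levels of 9 of the 10 licensing genes were higher in both mutant libraries than in WT, with counting intervals above 1, and Gins2 was at about the same low level in all 3. Summed over the 10 genes, the fragments numbered 2437 in WT, 7355 in Dspp+/- and 5834 in the Dspp-/- library. Scaled for depth, the Dspp+/- total was 2.59 times WT (95% interval 2.47 to 2.71) and the Dspp-/- total 2.18 times WT (2.08 to 2.28). The Dspp-/- total was 0.842 times that of Dspp+/- (0.813 to 0.871). In bulk tissue, fewer cells of a type and less RNA per cell cannot be told apart, and neither can more cells and more RNA.

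**Figure D1:**
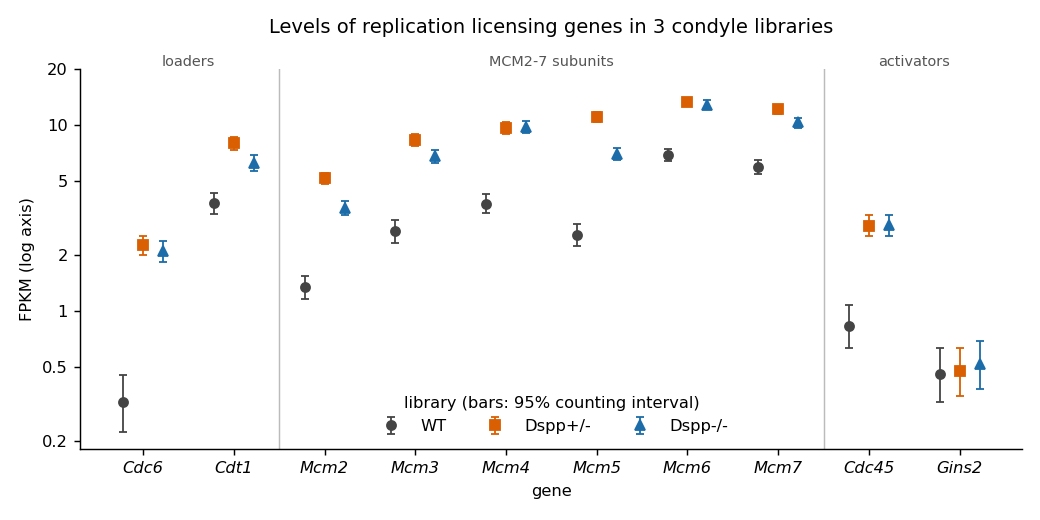
FPKM (log axis) of the 10 licensing genes in the WT (circles), Dspp+/- (squares) and Dspp-/- (triangles) library, with bars for the 95% counting interval. WT lies below both mutant libraries for every gene but Gins2, where the 3 values lie between 0.458 and 0.516 and their intervals overlap.

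The loading factor Cdc6 (chr11:98798627-98814766, plus strand, positions as in the deposited table) had the largest fold of the 10 genes. CDC6 is an ATPase that binds the origin recognition complex and opens the way for the MCM ring. Its level was 0.321 FPKM in WT, 2.25 in Dspp+/- and 2.097 in the Dspp-/- library. The WT value rests on 34 fragments, beside 278 and 244 in the mutant libraries. The fold over WT came to 7.01 (4.90 to 10.3) in Dspp+/- and 6.53 (4.55 to 9.64) in the Dspp-/- library. The mutant libraries did not differ beyond counting error (0.931, interval 0.781 to 1.11).

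Cdt1 (chr8:123294754-123300293, plus strand) encodes the partner that brings the MCM ring to the origin and is destroyed once S phase begins. Its level was 3.81 FPKM in WT, 7.97 in Dspp+/- and 6.27 in the Dspp-/- library. It was the most abundant loading factor in each library but had the smaller fold, 2.09 (1.80 to 2.44) and 1.65 (1.40 to 1.93). Cdt1 was lower in Dspp-/- than in Dspp+/-, at 0.786 times (0.693 to 0.891).

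Among the helicase subunits, Mcm5 (chr8:75836197-75855067, plus strand) had the largest fold in both mutant libraries and also the largest gap between them. It stood at 2.56 FPKM in WT, 11.1 in Dspp+/- and 7.00 in the Dspp-/- library. The fold over WT came to 4.34 (3.74 to 5.07) in Dspp+/- and 2.73 (2.33 to 3.21) in the Dspp-/- library. MCM5 sits beside MCM2 at the gate through which the ring opens onto DNA. Mcm2 (chr6:88860456-88875762, minus strand), the other gene of that gate, was the lowest subunit in each library, at 1.34, 5.16 and 3.57 FPKM in WT, Dspp+/- and Dspp-/-. Its fold over WT came to 3.85 (3.28 to 4.53) in Dspp+/- and 2.66 (2.25 to 3.16) in the Dspp-/- library. In Dspp-/- both genes of the gate were below Dspp+/-, Mcm5 at 0.629 times (0.569 to 0.695) and Mcm2 at 0.692 times (0.621 to 0.771).

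Mcm3 (chr1:20873192-20890536, minus strand), the neighbour of MCM5 in the ring, stood at 2.69 FPKM in WT, 8.33 in Dspp+/- and 6.80 in the Dspp-/- library. Its fold over WT came to 3.10 (2.65 to 3.64) and 2.53 (2.15 to 2.99). Mcm4 (chr16:15441761-15455264, minus strand) stood at 3.79, 9.66 and 9.77 FPKM. MCM4 forms with MCM6 and MCM7 the part of the ring in which helicase activity was first found. The fold of Mcm4 was 2.55 (2.22 to 2.94) in Dspp+/- and 2.58 (2.25 to 2.97) in the Dspp-/- library, and the mutant libraries did not differ beyond counting error (1.01, interval 0.915 to 1.12).

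Mcm6 (chr1:128259327-128287401, minus strand) was the most abundant of the 10 genes in each library, at 6.92 FPKM in WT, 13.4 in Dspp+/- and 12.9 in the Dspp-/- library. Mcm7 (chr5:138162845-138170684, minus strand) was the next, at 5.97, 12.2 and 10.3 FPKM. The most abundant subunits had the smallest folds of the ring, 1.93 (1.76 to 2.12) and 1.86 (1.69 to 2.05) for Mcm6 and 2.04 (1.85 to 2.26) and 1.73 (1.56 to 1.93) for Mcm7. An intron of Mcm7 hosts the microRNA genes Mir25 and Mir93, and 12.6% of the exon length of Mcm7 overlaps other annotated genes, so a small part of its fragments is uncertain.

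Cdc45 (chr16:18599197-18630737, minus strand) encodes the factor that joins the loaded ring when an origin fires. It stood at 0.831 FPKM in WT, 2.87 in Dspp+/- and 2.90 in the Dspp-/- library. The fold was 3.46 (2.59 to 4.68) and 3.48 (2.61 to 4.72), so the mutant libraries were level (1.01, interval 0.836 to 1.21). The WT value rests on 59 fragments.

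Gins2 (chr8:121305372-121316043, minus strand) encodes a subunit of the GINS complex, the other activator, and did not share the pattern. It stood at 0.458 FPKM in WT, 0.475 in Dspp+/- and 0.516 in the Dspp-/- library, from 38, 46 and 47 fragments. The fold over WT came to 1.04 (0.661 to 1.64) and 1.13 (0.718 to 1.77), so a change of up to about those bounds was not detectable at this depth. Of its exon length, 67.3% overlaps Gse1, a gene on the other strand, and the counting was not stated to use strand, so fragments of the 2 genes cannot be told apart. Gse1 stood at 3.92 FPKM in WT, 3.96 in Dspp+/- and 3.36 in the Dspp-/- library.

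**Figure D2:**
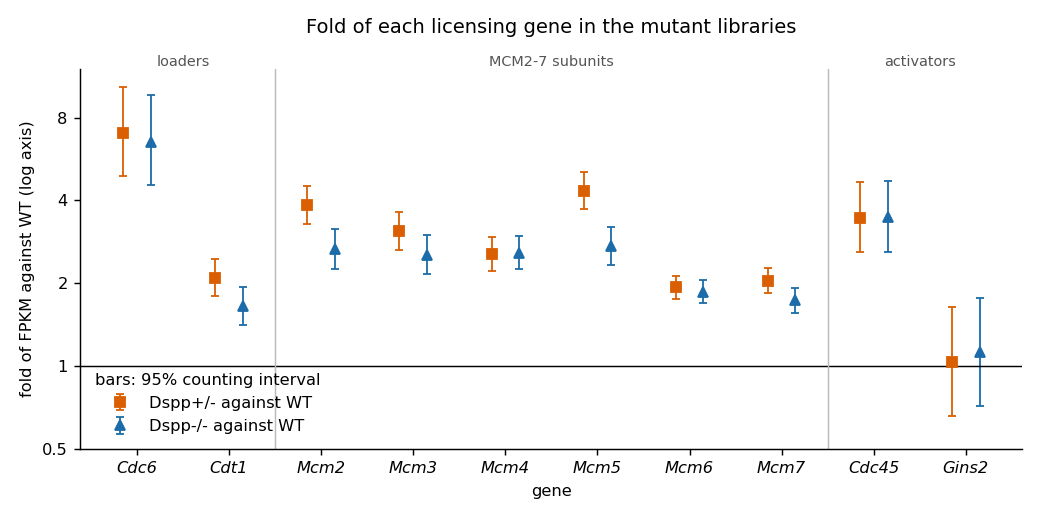
Fold of FPKM against WT (log axis) for each licensing gene in the Dspp+/- (squares) and the Dspp-/- library (triangles), with bars for the 95% counting interval and a line at 1. Cdc6 has the largest folds (7.01 and 6.53), Gins2 lies on the line, and Mcm2 and Mcm5 show the widest gaps between the mutant libraries.

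A threshold of 2-fold was set on log2(FPKM + 1), a scale on which the change of a low gene is understated. In Dspp+/-, 6 of the 10 genes rose past it (Mcm2, Mcm3, Mcm4, Mcm5, Cdc6 and Cdc45) and none fell, where 4.88% of the 13026 genes whose 3 libraries averaged 1 FPKM or more were past it upward and 2.86% downward. In Dspp-/-, 5 of the 10 rose (Mcm3, Mcm4, Mcm5, Cdc6 and Cdc45) and none fell, beside 4.05% upward and 1.37% downward. Gins2 was below that average, and Cdc6 and Cdc45 were above it only through the mutant libraries. The median of the log2 ratios over all 10 genes was 1.12 in Dspp+/- and 1.02 in the Dspp-/- library, and the median over the 13026 genes was 0.058 and 0.0070. Scaled on housekeeping genes, 3 and 1 of the licensing genes were past the threshold upward, beside 344 and 385 of the 13026 genes. On that scale each of the 9 apart from Gins2 stayed above 0.

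Set against each other, the mutant libraries did not move every gene alike. In Dspp-/- the counting interval lay below Dspp+/- for 5 genes (Mcm2, Mcm3, Mcm5, Mcm7 and Cdt1) and held 1 for the other 5. Mcm3 was at 0.817 times Dspp+/- (0.731 to 0.912) and Mcm7 at 0.847 times (0.779 to 0.921). Mcm6 was at 0.964 times (0.894 to 1.04). No licensing gene had an interval above 1 on the deposited scale. These calls depended on the scaling: with housekeeping scaling only Mcm2 (0.790, interval 0.708 to 0.880) and Mcm5 (0.718, 0.649 to 0.794) stayed below Dspp+/-, Mcm3, Mcm7 and Cdt1 held 1, and Mcm4 (1.15, 1.04 to 1.27) and Mcm6 (1.10, 1.02 to 1.19) were above it. The comparisons with WT share the WT library, so a low or high WT value moves both folds of a gene together.

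The order of levels changed between libraries, and it rests on the annotated exon length of each gene. In WT it ran from Mcm6 and Mcm7 through Cdt1, Mcm4, Mcm3, Mcm5, Mcm2 and Cdc45 to Gins2 and Cdc6. Neighbours that did not differ beyond counting error were Cdt1 and Mcm4 (ratio 1.01, interval 0.843 to 1.20), Mcm3 and Mcm5 (1.05, 0.860 to 1.279) and Gins2 and Cdc6 (1.43, 0.874 to 2.34). In Dspp+/- the order was Mcm6, Mcm7, Mcm5, Mcm4, Mcm3, Cdt1, Mcm2, Cdc45, Cdc6 and Gins2, and of the neighbours only Mcm3 and Cdt1 did not differ beyond counting error (1.04, 0.937 to 1.17). Mcm5 had thus moved from below Mcm3 to above Mcm4. In Dspp-/- Mcm5 was again below Mcm4, and the neighbours within counting error were Mcm7 and Mcm4 (1.06, 0.963 to 1.16), Mcm5 and Mcm3 (1.03, 0.917 to 1.16) and Mcm3 and Cdt1 (1.09, 0.956 to 1.23). Cdc6 was the lowest of the 10 in WT and stood above Gins2 by 4.74 times (3.46 to 6.62) in Dspp+/- and 4.07 times (2.97 to 5.68) in the Dspp-/- library.

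The MCM ring holds each of its subunits once, and the RNA levels of the 6 genes lay closer together in the mutant libraries. Their summed level was 23.3 FPKM in WT, 59.9 in Dspp+/- and 50.4 in the Dspp-/- library. The most abundant subunit gene, Mcm6, exceeded the least abundant, Mcm2, by 5.16 times in WT, 2.59 times in Dspp+/- and 3.61 times in Dspp-/-. Mcm2 was divided by 6956 bases and Mcm3 by 3752, with 189 and 204 fragments in WT, so these levels rest on the annotated lengths. Mcm6 made up 29.8% of the sum in WT, 22.3% in Dspp+/- and 25.6% in the Dspp-/- library. Mcm5 made up 11.0%, 18.6% and 13.9%, and Mcm2 5.77%, 8.63% and 7.09%. In Dspp+/- the shares of Mcm5 and Mcm2 were thus the highest of the 3 libraries and that of Mcm6 the lowest.

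**Figure D3:**
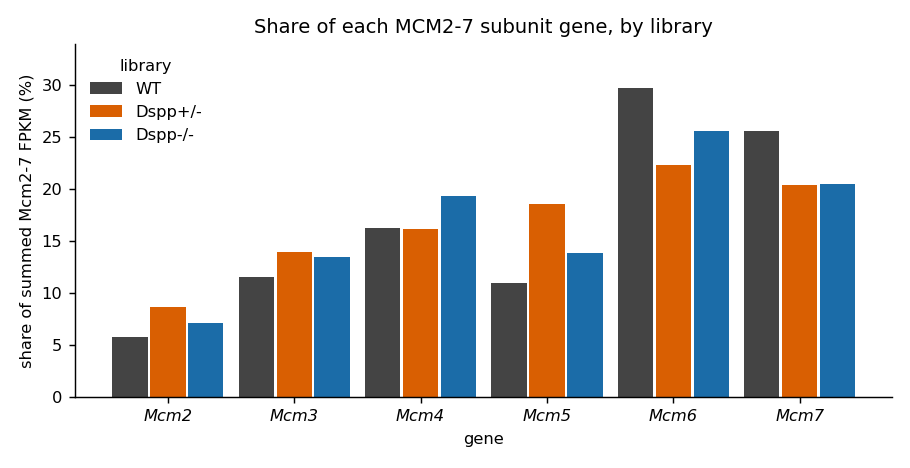
Share (%) of each of the 6 subunit genes in their summed FPKM, for the WT, Dspp+/- and Dspp-/- library, with 1 library per bar and no error bar. Mcm6 holds 29.8% in WT and 22.3% in Dspp+/-, and Mcm5 11.0% and 18.6%.

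The genes around licensing were taken as lists by role, with 78 genes in all. Of these, 69 had a higher value in Dspp+/- and 72 in the Dspp-/- library than in WT, and 11 and 9 rose past 2-fold. Among the 67 averaging 1 FPKM or more, 58 and 62 were higher, beside 56.3% and 50.7% of the 13026 genes. Past 2-fold upward were 10 and 9 of the 67, beside 4.88% and 4.05% of the 13026. With housekeeping scaling, 54 and 62 of the 78 were higher, where the median of the 13026 genes moved to -0.28 and -0.18. The median log2 ratio over the 78 was 0.55 and 0.41, below the medians of the licensing genes. The steps on either side of the ring differed in size.

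Upstream, the origin recognition complex, the platform on which the ring is loaded, was higher in all 6 genes in both mutant libraries as deposited. The medians were 0.34 and 0.46, with 1 past 2-fold, Orc1 in Dspp+/-. With housekeeping scaling, 2 of the 6 were higher in Dspp+/- and all 6 in Dspp-/-. That scaling turned the median in Dspp+/- to -0.012 over the 5 genes averaging 1 FPKM or more. The most abundant gene of the complex in WT, Orc3, stood at 6.55 FPKM in WT, 7.76 in Dspp+/- and 9.25 in the Dspp-/- library. Orc6 stood at 3.12, 4.79 and 5.11 FPKM. Orc1, the subunit whose level follows the cell cycle and which was picked out after its values were seen, stood at 0.114, 1.70 and 0.878 FPKM. The WT value of Orc1 rests on 8 fragments, and its fold was 15.0 (7.41 to 35.4) in Dspp+/- and 7.73 (3.71 to 18.6) in the Dspp-/- library. Cdc6 was above Orc1 by 2.83 times (1.285 to 7.07) in WT, 1.32 times (1.07 to 1.63) in Dspp+/- and 2.39 times (1.82 to 3.17) in the Dspp-/- library.

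The other GINS genes and the relatives of the MCM family were higher in all 7 genes in both mutant libraries as deposited, and in 5 and 6 of 7 with housekeeping scaling, where Gins4 and Mcm9 in Dspp+/- and Mcm8 in Dspp-/- turned lower. None was past 2-fold on log2(FPKM + 1). Mcm10, a low gene picked out after its values were seen, stood at 0.289, 1.18 and 0.900 FPKM, and its plain FPKM fold was 4.08 (2.94 to 5.75) and 3.11 (2.22 to 4.44). Gins4 stood at 8.53 FPKM in WT, 9.42 in Dspp+/- and 10.9 in the Dspp-/- library. The 4 GINS proteins form a complex with 1 copy of each, yet Gins4 exceeded Gins2 by 18.6 times (13.2 to 27.0) in WT, 19.8 times (14.5 to 27.6) in Dspp+/- and 21.2 times (15.6 to 29.4) in the Dspp-/- library. Because 67.3% of the exon length of Gins2 overlaps Gse1, the level of Gins2 and this ratio are uncertain beyond the counting intervals. Gins1 stood at 1.43, 2.85 and 2.22 FPKM, and Mcm9, a helicase of DNA repair, at 1.34, 1.48 and 1.93.

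Of the 7 genes that restrain or destroy CDT1, 6 had higher values in each mutant library. Past 2-fold were 2 in Dspp+/- and 1 in the Dspp-/- library. With housekeeping scaling, 3 of 7 were higher in Dspp+/- and 6 in Dspp-/-. The median of the list in Dspp+/- turned from 0.20 to -0.13 under that scaling. Gmnn, which codes for geminin, the protein that binds and blocks CDT1, rose in both, from 2.09 FPKM in the WT library to 6.97 in Dspp+/- and 5.18 in the Dspp-/- library. Fbxo5, an inhibitor of the anaphase-promoting complex that guards geminin, was past the threshold in Dspp+/- and short of it in Dspp-/-, at 2.39, 6.58 and 4.40 FPKM. Ddb1, an adaptor of the ligase that marks CDT1 for destruction and the most abundant of the list, stood at 41.5, 35.5 and 36.7 FPKM. The ratio of Cdt1 to Gmnn was 1.82 (1.37 to 2.45) in WT, 1.14 (0.983 to 1.33) in Dspp+/- and 1.21 (1.01 to 1.45) in the Dspp-/- library, so it was lower in Dspp+/- than in WT with intervals that do not overlap, and the WT and Dspp-/- intervals overlap.

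The 12 genes that fire licensed origins were higher in Dspp+/- without exception, apart from Cdk2 under housekeeping scaling, and in 11 of 12 in Dspp-/-, with 3 past 2-fold in each. Ccna2, the cyclin A of S phase, rose from 2.60 FPKM in the WT library to 9.03 in Dspp+/- and 9.81 in the Dspp-/- library. Ccne1, a cyclin E, rose from 0.427 to 2.59 and 2.30. Cdk2, the kinase partner of both, stood at 3.54, 4.73 and 4.73 FPKM. Ccna2 and Ccne1 were thus past the threshold in both mutant libraries while their kinase was not.

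Downstream, the 22 genes of polymerases, clamp and fork proteins were all higher in both mutant libraries as deposited, and in 18 and 17 of 22 with housekeeping scaling, with 1 past 2-fold in each, Rfc4, a subunit of the clamp loader (2.71, 6.44 and 6.95 FPKM). Pcna, the sliding clamp, stood at 14.9 FPKM in WT, 29.6 in Dspp+/- and 26.8 in the Dspp-/- library. Chaf1b, a chromatin assembly factor, stood at 1.32, 1.43 and 1.80 FPKM. The 6 genes of nucleotide supply were higher in both, apart from Tyms in Dspp-/- under housekeeping scaling, with Rrm2 and Rrm1, the subunits of ribonucleotide reductase, past 2-fold. Rrm2 rose from 2.82 FPKM in WT to 15.9 and 16.3, and Rrm1 from 2.56 to 6.99 and 6.50. Dut stood at 3.65, 7.82 and 7.10 FPKM, and Tyms, thymidylate synthase, at 0.966, 1.59 and 1.05.

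Of the 11 E2F and pocket protein genes, the regulators of the licensing genes, 8 had higher values in Dspp+/- and 10 in the Dspp-/- library, and the same 2 were past 2-fold in both. E2f2, an activator, rose from 1.70 FPKM in the WT library to 11.4 in Dspp+/- and 8.77 in the Dspp-/- library. E2f8, an atypical repressor, rose from 0.635 to 5.36 and 4.35. E2f4, the most abundant of the family in WT, stood at 14.3, 23.5 and 18.6 FPKM, and E2f5, another repressor, at 6.32, 4.25 and 4.92.

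The 7 CDK inhibitors, which hold cells out of the cycle, had mixed ratios, with 2 higher and 5 lower in Dspp+/- and 4 higher and 3 lower in Dspp-/-. None rose past 2-fold and 1 fell in each. Cdkn1a, which codes for p21, stood at 59.0 FPKM in WT and 49.1 in Dspp+/- and fell to 28.0 in Dspp-/-. Cdkn2a fell from 3.84 FPKM in the WT library to 1.19 in Dspp+/- and stood at 1.76 in Dspp-/-. Cdkn2d, an inhibitor of CDK4 and CDK6, stood at 8.25, 15.8 and 14.4 FPKM.

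**Figure D4:**
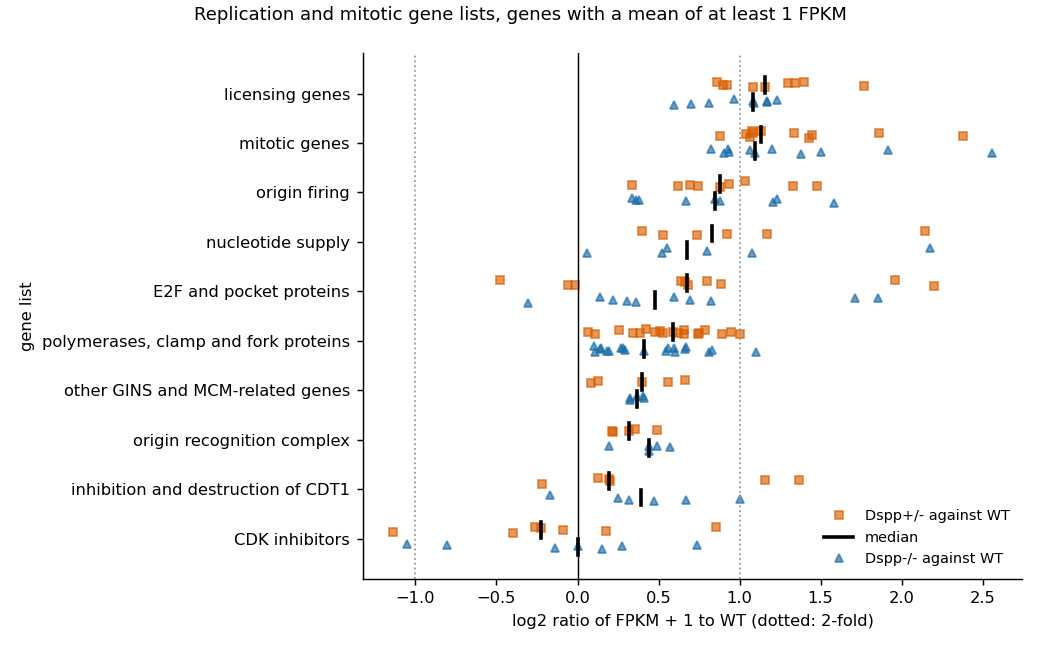
Log2 ratio of FPKM + 1 to WT for the genes of each list averaging 1 FPKM or more, Dspp+/- as squares, Dspp-/- as triangles, the median of each as a black bar and dotted lines at 2-fold. The licensing genes and the mitotic genes have the highest medians of the lists shown, 1.16 and 1.13 in Dspp+/- over the genes plotted, and the CDK inhibitors lie around 0.

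The 12 mitotic genes had ratios of about the size of the licensing genes, with medians of 1.11 in Dspp+/- and 1.08 in the Dspp-/- library over all 12 genes. All 12 had higher values in both mutant libraries, with 10 past 2-fold in Dspp+/- and 7 in the Dspp-/- library. Mki67, which codes for the proliferation marker Ki-67, rose from 4.34 FPKM in the WT library to 26.7 in Dspp+/- and 30.5 in the Dspp-/- library. Bub1b, a checkpoint kinase, stood at 1.86, 4.27 and 4.34 FPKM. The summed FPKM of the 10 licensing genes over that of the 12 mitotic genes was 1.13 in WT, 0.800 in Dspp+/- and 0.656 in the Dspp-/- library. Without Mki67 the ratio was 1.37, 1.13 and 0.966, so the order of the libraries was the same.

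Of the 10 licensing genes, 3 start head to head with a protein-coding gene on the other strand. Mcm4 and Prkdc, the catalytic subunit of DNA-dependent protein kinase, start 466 bases apart. Prkdc stood at 1.54 FPKM in WT, 2.21 in Dspp+/- and 2.03 in the Dspp-/- library, a fold of 1.44 (1.27 to 1.63) and 1.32 (1.16 to 1.501), below that of Mcm4 in both. Mcm7 overlaps the start of Ap4m1, a subunit of an adaptor complex, which stood at 2.41, 2.46 and 2.41 FPKM. Cdc45 overlaps the start of Ufd1, a factor of protein degradation, which stood at 8.43, 8.58 and 8.46 FPKM. The fold of both in Dspp+/- was 1.02, with intervals of 0.861 to 1.20 for Ap4m1 and 0.921 to 1.12 for Ufd1, where their partners stood at 2.04 and 3.46.

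**Figure D5:**
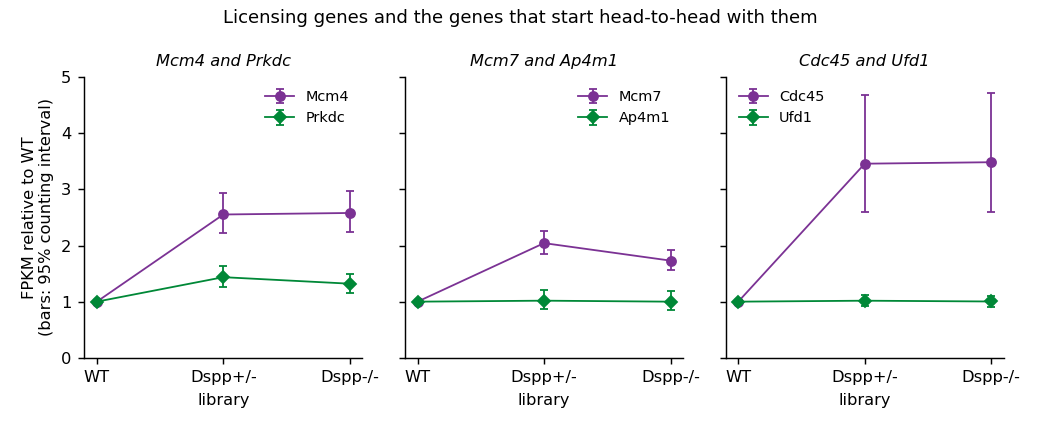
FPKM relative to WT of Mcm4, Mcm7 and Cdc45 (circles) and of the genes that start head to head with them (diamonds) in the 3 libraries, with bars for the 95% counting interval. Ap4m1 and Ufd1 stay within 2% of WT while Mcm7 and Cdc45 are at 2.04 and 3.46 times WT in Dspp+/-, and Prkdc lies between 1.32 and 1.44.

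Markers of several cell types moved with the licensing genes, and their part in the result was not tested. No marker of these lists was at 0 in any library. The summed level of 10 erythroid markers was 506 FPKM in WT, 2069 in Dspp+/- and 2183 in the Dspp-/- library, with 9 of 10 past 2-fold in each. Their most abundant gene in WT, the globin Hbb-bs, stood at 425, 1794 and 1886 FPKM, values that are uncertain because Hbb-bt is a near-identical copy. The 10 markers of granulocyte precursors summed to 272, 1500 and 1458 FPKM, with 10 of 10 past 2-fold in each, and their most abundant gene, Ngp, stood at 145, 562 and 744 FPKM. The 6 megakaryocyte markers summed to 24.6, 127 and 139 FPKM (Ppbp 10.4, 75.6 and 86.7), with 6 of 6 past 2-fold in each. The 11 B cell precursor markers summed to 27.9, 78.5 and 66.1 FPKM (Cd79b 5.90, 21.8 and 15.4), with 5 and 6 of 11 past 2-fold upward. Of the 11, 3 were lower in Dspp+/-, namely Vpreb1 at 0.403 times WT (0.208 to 0.751), Igll1 at 0.351 times (0.142 to 0.792) and Dntt at 0.947 times (0.596 to 1.51).

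Markers of cartilage and bone cells moved the other way. The 10 chondrocyte markers summed to 1352 FPKM in WT, 190 in Dspp+/- and 569 in the Dspp-/- library, with 8 and 6 past 2-fold downward, and Col2a1, the collagen of cartilage, stood at 761, 94.2 and 308 FPKM. The 10 osteoblast markers summed to 13660, 3654 and 7263 FPKM, with 9 and 3 past 2-fold downward (Col1a1 6675, 1719 and 3610). The 8 osteoclast markers summed to 2258, 804 and 1317 FPKM, with 6 and 1 past 2-fold downward (Ctsk 863, 279 and 481). Macrophage markers summed to 185, 158 and 156 FPKM (Cd68 50.4, 34.7 and 44.3) and endothelial markers to 131, 147 and 143 FPKM (Cdh5 48.9, 56.2 and 52.8), with none past 2-fold. The 8 skeletal muscle markers summed to 9979, 13634 and 11261 FPKM (Acta1 5609, 8162 and 7150) but moved apart, with 1 past 2-fold upward and 2 downward in Dspp+/- and none in Dspp-/-, where 4 of 8 were lower. Those that fell in Dspp+/- were Myh4 (124, 18.2 and 111 FPKM) and Actn3 (122, 31.0 and 89.5). The licensing genes and the erythroid, granulocyte precursor, megakaryocyte and B cell precursor markers were thus lowest in sum in WT. By smaller margins, so were the endothelial and skeletal muscle markers. The chondrocyte, osteoblast and osteoclast markers were highest in sum in WT, and so, by a smaller margin, were the macrophage markers. Of the 7 macrophage markers, 4 were higher and 3 lower in Dspp+/-, and 2 were higher and 5 lower in Dspp-/-.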

How the data were processed

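Condyle RNA was poly(A)-selected, built into libraries with a NEBNext Ultra kit and sequenced on a NovaSeq with paired reads of 150 bases. The submitters' processing notes name FastQC 0.11.5, HISAT2 2.1.0, StringTie 1.3.3b, DESeq 1.28.0 and the build hg38, a human build that cannot be that of this mouse table. The values the authors deposited were read as FPKM, a unit the file does not name. The labels speak of triplicate samples, but the table holds 1 value per gene and genotype. Positions are those of the deposited table, whose build is not named: only 589 of 26970 genes share both ends with GENCODE M21 (GRCm38), and the coordinates of the printed sequences are on GRCm38.p6 and do not correspond to them.

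FPKM was multiplied by the merged exon length of GENCODE M21 (26652 genes matched by identifier) and divided by the value of 1 fragment, which gave whole fragments, within 0.1, for 26197 genes in all 3 libraries. Among values under 100 fragments, 98.8%, 98.9% and 98.8% came out whole in WT, Dspp+/- and Dspp-/-. Ratios were taken on log2(FPKM + 1) with a threshold of 2-fold, for genes whose libraries averaged 1 FPKM or more. Folds are ratios of FPKM, with exact Clopper-Pearson 95% intervals from fragments. The 1 library per genotype allowed no test. Simulated data of Dspp+/- against WT (26197 genes) returned 200 of 200 planted 4-fold genes and 10 of 12176 unchanged ones. Counts were drawn from WT levels with counting error only, and the planted genes averaged 3 FPKM or more. No spread between animals was simulated, so these counts are not error rates for a genotype. Promoters were RefSeq's, of GRCm38.p6, 250 bases before the start. Fragments antisense to a gene cannot be told apart, since no source states strand.

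The 10 genes and all lists were chosen with earlier results of these data known. Named were the 10 genes, and from each list the most abundant in WT and, for pathway and mitotic lists, those with the highest and lowest ratio in Dspp+/-, plus head-to-head genes. Ccne1, Fbxo5, Rrm1 and E2f8, which passed 2-fold, were named after their values were seen. So were Orc1, Mcm10, Mcm8, Gse1, Tfrc, Vpreb1, Igll1, Dntt, Myh4 and Actn3. Alternatives were other pseudocounts, filters, thresholds and scalings. The work used Python 3.11.15 with scipy 1.17.1, pandas 2.3.3, numpy 2.4.6 and matplotlib 3.10.9.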

Additional observations from a re-analysis of the deposited data

Results flagged for a closer look

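The ratios of 4 items had opposite signs in the mutant libraries, and these differences were not tested. Ap4m1, the gene that starts head to head with Mcm7, had a log2 ratio to WT of 0.018 in Dspp+/- and -0.00013 in Dspp-/-. The median over the 7 CDK inhibitors was -0.22 in Dspp+/- and 0.0031 in Dspp-/-. The median over the 7 macrophage markers was 0.13 in Dspp+/- and -0.18 in Dspp-/-. The median over the 8 skeletal muscle markers was 0.29 in Dspp+/- and -0.041 in Dspp-/-.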

How the results depend on the processing

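The 9 licensing genes other than Gins2 had a higher value than WT in both mutant libraries under every alternative scaling. Other pseudocounts and filters cannot turn a higher value into a lower one, so those settings do not bear on this direction. The count of licensing genes past 2-fold, 6 in Dspp+/- and 5 in Dspp-/-, was 1 and 0 with a pseudocount of 5 FPKM, 3 and 3 of 6 at an average of 5 FPKM or more, 3 and 1 with housekeeping scaling, 0 and 0 at 4-fold, and 9 in Dspp-/- at 1.5-fold. Their median log2 ratio over the 9 averaging 1 FPKM or more, 1.16 in Dspp+/-, was 1.60 with a pseudocount of 0.1 FPKM, 0.65 with 5 FPKM and 0.78 with housekeeping scaling. In Dspp-/- it was 1.08, and 1.34 and 0.48 with those pseudocounts. Between the mutant libraries it was -0.22, and -0.044 with housekeeping scaling. Housekeeping scaling moved the median of all genes to -0.28 in Dspp+/- and -0.18 in Dspp-/-. Of all genes averaging 1 FPKM or more, 636 in Dspp+/- and 527 in Dspp-/- were past 2-fold upward. That count was 971 and 836 with a pseudocount of 0.1 FPKM, 185 and 136 with 5 FPKM, and 344 and 385 with housekeeping scaling. At 1.5-fold it was 1501 and 1152, and at 4-fold 124 and 103. Among the smaller set averaging 5 FPKM or more it was 281 and 228. Genes of the pathway and mitotic lists averaging 1 FPKM or more and past 2-fold numbered 20 in Dspp+/- and 16 in Dspp-/-, and 21 and 16 with no such filter. They were 33 and 25 with a pseudocount of 0.1 FPKM, 4 and 4 with 5 FPKM, 9 and 8 at an average of 5 FPKM or more, 44 and 35 at 1.5-fold, and 3 and 2 at 4-fold. In Dspp+/- they were 9 with housekeeping scaling. The median of the origin recognition complex in Dspp+/- turned to -0.012 and that of CDT1 inhibition to -0.13 with housekeeping scaling. The ratio of licensing to mitotic genes was 1.37, 1.13 and 0.966 in WT, Dspp+/- and Dspp-/- without Mki67, an alternative added after seeing the data. Of the replication genes named, Orc1 (8 fragments in WT), Ccne1 (23), Cdc6 (34) and Gins2 (38) were the most limited by depth. No paired analysis was possible because there was 1 library per genotype.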
